A study of Oryza sativa with 12 samples.

Results

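The genes described here are 33 rice loci whose transcripts were plentiful at 29 ºC and at least 8-fold lower after heat stress at 45 ºC. They were chosen from the deposited expression values by a rule with a floor and a ratio. A locus had to reach at least 10 FPKM in each of the 6 libraries at 29 ºC, and its highest library at 45 ºC had to lie at or below one eighth of its lowest library at 29 ºC. By its usual definition, FPKM is the number of fragments counted on a transcript, scaled by transcript length and by the mapped fragments in the library. How the deposited values were scaled between libraries is not settled. Of 55986 loci in the table, 8235 reached the floor and 33 of these also met the ratio, which is 0.401% of the loci over the floor. The fall itself was therefore fixed by the choice and is described below without a test.

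The RNA came from whole seedlings of the rice cultivar Nipponbare, harvested about 8 days after germination. WT plants and plants of ntl3-1, a CRISPR-Cas9 line in which the membrane-associated NAC transcription factor OsNTL3 (LOC_Os01g15640) is edited, were kept at 29 ºC or moved to 45 ºC for 3 h, with 3 replicates in each of the 4 groups. The labels write the mutant genotype as NTL3-/- and give no temperatures, which were taken from the study's methods, and all mutant libraries come from a single edited line. The study's methods report that seedlings were gathered for each replicate. Nothing states that the replicates were separate cultures, so the p-values below measure the spread between these samples, which may be technical. OsNTL3 mRNA, the check of the labels, lay between 18.3 and 21.8 FPKM in WT and between 10.3 and 14.1 FPKM in ntl3-1 at 29 ºC. At 45 ºC it lay between 57.5 and 87.5 FPKM in WT and between 28.4 and 34.1 FPKM in ntl3-1. The genotypes did not overlap at either temperature, an order that 16.4% (29 ºC) and 9.71% (45 ºC) of the loci at the floor also showed. At 29 ºC the log2 difference of OsNTL3 was -0.67, which did not pass the limit of 0.05 used below (Benjamini-Hochberg adjusted p = 0.0663 from limma). An edit that truncates a protein can leave its mRNA in place, and the edited bases were not examined. The seedling label was not checked against marker genes.

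As background, the amount of an mRNA is set by the balance of its transcription and its degradation. A transcript can fall to a small part of its level within hours only if the existing molecules are broken down while few new ones are made. In plants, heat stress induces chaperone genes through heat shock factors and lowers the mRNA of many genes of growth and metabolism, and NAC factors tethered to membranes are released to the nucleus by stress. Neither transcription nor mRNA decay was measured in these libraries. In RNA from whole seedlings, a loss of cells of one type and a loss of mRNA per cell cannot be told apart.

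Of the 33 members, 1 has a product name among the sources used here, which is LOC_Os04g11040, described as an expressed protein. The other 32 are given by locus only, and the roles of all 33 are left out, because the product names used here cover 2750 loci of the study's own lists and the RefSeq gene table used here matched 0 of the loci. For the same reason no sequence or coordinate is shown, and the chromosome of a locus is the one its name carries.

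The libraries differed between temperatures in ways that bear on low values. FPKM summed to between 610880 and 698971 in the libraries at 29 ºC and to between 1.15e+06 and 1.37e+06 in those at 45 ºC, while the median difference between the temperatures over the 31681 loci tested was -0.04 on the log2 scale in both genotypes. Judged from the lowest values of each library, a single read was worth 1.69 to 2.04 times as much FPKM at 45 ºC as in the first WT library at 29 ºC, and 0.878 to 1.08 times as much in the others at 29 ºC. Read counts were not used here, so that the depth in reads is unknown and the counting error of the low values at 45 ºC was not estimated.

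The ratio fell off steeply among the 8235 loci over the floor. In 2052 of them (24.9%) every library at 45 ºC lay at or below every library at 29 ºC, in 261 by at least 2-fold, in 80 by at least 4-fold and in 12 by at least 16-fold. Among the members, the ratio of the lowest library at 29 ºC to the highest at 45 ºC was 8.02 to 52.3 in the 32 loci where it could be formed, with a median of 13.7. Of these 32, 21 lay between 8 and 16 and 11 at 16 or more.

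**Figure D1:**
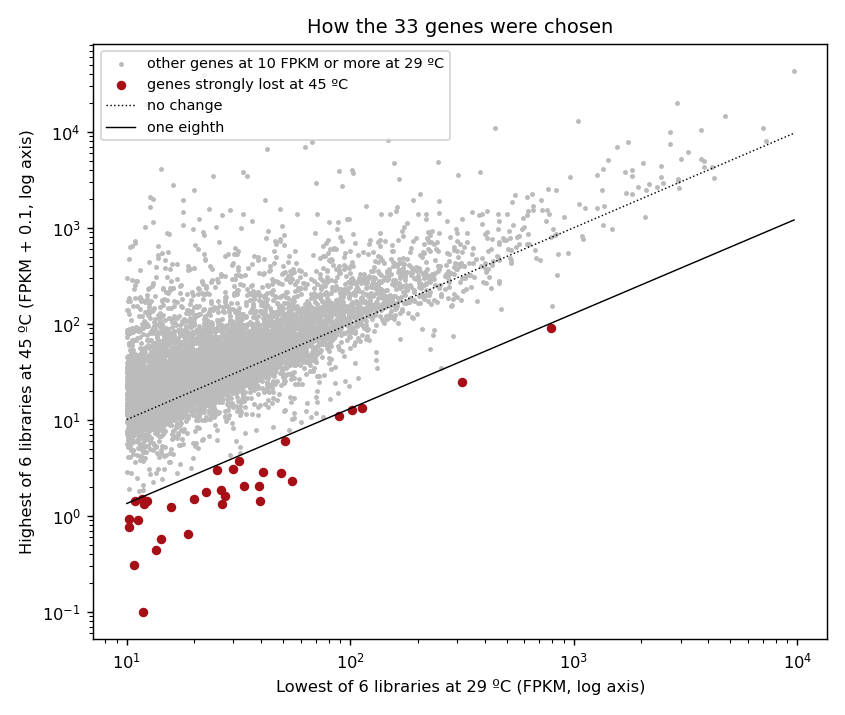
Each point is 1 of the 8235 loci at 10 FPKM or more in each library at 29 ºC, with its lowest library at 29 ºC on the horizontal axis (FPKM, log axis) and its highest library at 45 ºC, plus 0.1 FPKM, on the vertical axis (log axis). The 33 red points are the loci at or below the solid line of one eighth, and the lowest of them is LOC_Os09g15365, listed at 0 FPKM in all 6 libraries at 45 ºC.

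Just inside the ratio were LOC_Os01g11730 (8.02), LOC_Os12g10220 (8.23) and LOC_Os05g12280 (8.24). Just outside it were LOC_Os01g74410 (7.46), LOC_Os11g38790 (7.26) and LOC_Os02g44310 (7.13). LOC_Os01g74410 is described as a MYB family transcription factor, a class of DNA-binding regulators. At the floor, the lowest library at 29 ºC held 10.3 FPKM in LOC_Os11g07770, 10.3 FPKM in LOC_Os10g01640 and 10.8 FPKM in LOC_Os05g04440, which were kept. It held 9.53 FPKM in LOC_Os10g03390, 9.05 FPKM in LOC_Os05g41420 and 7.88 FPKM in LOC_Os01g71720, which met the ratio and were left out.

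At 29 ºC the mean over the 6 libraries ranged from 15.5 to 1300.0 FPKM among the members, with a median of 39.3 FPKM against 25.8 FPKM over all loci at the floor. It was above 100 FPKM in 6 members, between 20 and 100 FPKM in 19 and below 20 FPKM in 8. At 45 ºC the highest of the 6 libraries was below 1 FPKM in 8 members, between 1 and 5 FPKM in 19 and above 5 FPKM in 6. The mean at 45 ºC was a median of 3.06% of the mean at 29 ºC in WT (at most 7.58%) and 2.66% in ntl3-1 (at most 6.80%). The percentage was lower in ntl3-1 for 18 of the 33. On the log2 scale, the change between the temperatures was lower in ntl3-1 for 60% of the loci at the floor.

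The most abundant member was LOC_Os07g03279 on chromosome 7. In WT it fell from 1424, 788 and 1640 FPKM to 54.8, 70.6 and 90.3 FPKM. In ntl3-1 it fell from 1035, 1096 and 1817 FPKM to 67.0, 50.1 and 37.8 FPKM. The genotypes overlapped at both temperatures. Even after the fall its mean of 61.7 FPKM exceeded the mean that 23 other members had at 29 ºC.

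LOC_Os01g18170 on chromosome 1 was next. It was measured at 518, 327 and 483 FPKM in WT and at 502, 315 and 523 FPKM in ntl3-1 at 29 ºC. After heat stress the values were 24.6, 18.4 and 20.8 FPKM in WT and 14.6, 14.0 and 16.6 FPKM in ntl3-1. At 29 ºC the library numbered 2 was the lowest in both genotypes, and at 45 ºC the ntl3-1 libraries all lay below those of WT.

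LOC_Os01g11730 fell from 162, 120.4 and 158 FPKM to 12.6, 8.98 and 5.83 FPKM in WT and from 101, 170.0 and 122 FPKM to 3.82, 5.25 and 8.85 FPKM in ntl3-1. LOC_Os04g11040, the expressed protein, went from 121, 151 and 153 FPKM to 13.2, 10.5 and 7.14 FPKM in WT and from 119, 112 and 142 FPKM to 2.96, 7.77 and 2.89 FPKM in ntl3-1. LOC_Os12g10220 on chromosome 12 stood at 130.2, 142 and 149 FPKM in WT and at 103, 88.7 and 124 FPKM in ntl3-1 at 29 ºC, and at 10.8, 7.02 and 5.79 FPKM and 6.26, 10.01 and 5.23 FPKM at 45 ºC. These are the members that kept the most transcript after heat stress apart from the leading pair, and only in LOC_Os12g10220 were the genotypes apart at 29 ºC, with ntl3-1 lower.

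LOC_Os10g05950 on chromosome 10 had 1 low library at 29 ºC. Its ntl3-1 libraries held 112, 133 and 20.1 FPKM, and its WT libraries 128, 148 and 83.5 FPKM. At 45 ºC it was measured at 0.664, 1.39 and 0 FPKM in WT and at 0.579, 0.567 and 0.832 FPKM in ntl3-1. The third ntl3-1 library at 29 ºC was low for this gene alone among the 33, since it was the lowest of its group for no other member.

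The next loci completed the 10 most abundant members. LOC_Os04g03579 held 83.2, 102 and 90.2 FPKM in WT and 58.6, 39.4 and 79.8 FPKM in ntl3-1 at 29 ºC, and no library exceeded 1.33 FPKM at 45 ºC. LOC_Os03g13210 held 78.9, 77.4 and 97.4 FPKM against 62.6, 49.2 and 57.1 FPKM at 29 ºC, and between 1.24 and 2.74 FPKM at 45 ºC. In both of these loci the ntl3-1 libraries at 29 ºC all lay below the WT libraries. LOC_Os09g39070 went the other way in its means, with 60.1, 54.7 and 62.1 FPKM in WT and 61.5, 67.7 and 112 FPKM in ntl3-1, and with 0.937, 0.545 and 1.17 FPKM against 1.35, 2.17 and 2.19 FPKM at 45 ºC. LOC_Os10g40530 held 114, 50.2 and 94.2 FPKM in WT and 52.2, 31.6 and 67.4 FPKM in ntl3-1 at 29 ºC, and between 0.565 and 3.62 FPKM at 45 ºC.

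**Figure D2:**
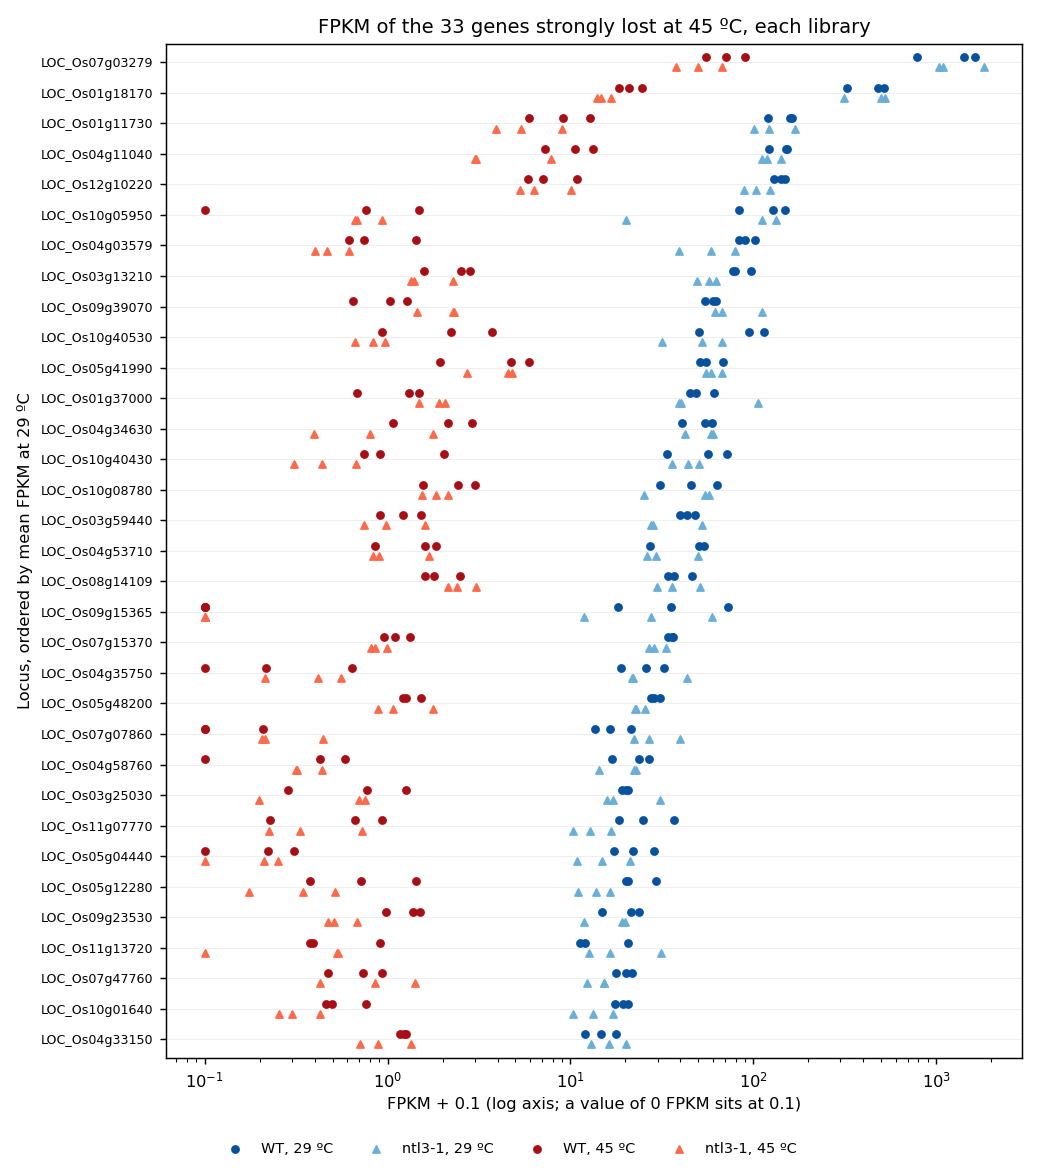
FPKM plus 0.1 of each of the 33 members (log axis) in each of the 12 libraries, with WT as circles, ntl3-1 as triangles, 29 ºC in blue and 45 ºC in red, ordered by mean FPKM at 29 ºC. The blue and red points are apart in every row because the rule required it, and within a temperature the genotypes mostly overlap. LOC_Os10g05950 has 1 ntl3-1 library at 20.1 FPKM apart from the others of its group.

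Of the 5 members that fell furthest by the ratio, LOC_Os04g03579 was among the 10 most abundant and the others were not. LOC_Os09g15365 on chromosome 9 was listed at 0 in all 6 libraries at 45 ºC, and no fold is given for it. At 29 ºC it held 18.2, 35.5 and 72.8 FPKM in WT and 11.8, 27.4 and 59.4 FPKM in ntl3-1. The spread was the widest of all members, with a coefficient of variation of 66.2% in WT and 73.8% in ntl3-1, and in both genotypes the order of the libraries was the same.

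LOC_Os05g04440 had the largest ratio that could be formed, 52.3. It went from 28.5, 17.1 and 22.0 FPKM to 0, 0.206 and 0.123 FPKM in WT and from 14.7, 10.8 and 21.2 FPKM to 0.111, 0 and 0.152 FPKM in ntl3-1. LOC_Os07g07860 followed with a ratio of 39.3, from 16.3, 13.5 and 21.3 FPKM to 0, 0.108 and 0 FPKM in WT and from 22.1, 26.9 and 39.8 FPKM to 0.343, 0.113 and 0.105 FPKM in ntl3-1. For LOC_Os04g35750 the ratio was 34.8, from 18.9 to 43.3 FPKM at 29 ºC to at most 0.543 FPKM at 45 ºC. LOC_Os04g03579, described above, had a ratio of 29.5. In LOC_Os07g07860 the genotypes were apart at 29 ºC, with ntl3-1 higher, and it was the only member with that order. In all, 7 members were listed at 0 in at least 1 library at 45 ºC, with 9 such values in WT and 5 in ntl3-1.

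On the log2(FPKM + 0.1) scale, which understates the change of low values, the median change of the members was -4.99 in WT (range -8.50 to -3.59) and -5.11 in ntl3-1 (range -8.07 to -3.90). All 33 passed the limits for down-regulation in both genotypes, a Benjamini-Hochberg adjusted p of at most 0.05 from limma with a log2FC of -1 or lower, which 11.8% of all loci tested did in WT and 11.3% in ntl3-1. The rule used this contrast, so nothing is read from that count. The standard error of a difference between groups was a median of 0.37 among the members, against 0.12 over the loci at the floor.

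The members together held 0.525 ± 0.090% of the FPKM sum in WT and 0.469 ± 0.107% in ntl3-1 at 29 ºC (SD, n = 3 each). At 45 ºC their share was 0.0122 ± 0.0008% in WT and 0.00862 ± 0.00056% in ntl3-1 (SD, n = 3 each). Single libraries at 45 ºC gave 0.0115% to 0.0131% in WT and 0.00804% to 0.00916% in ntl3-1, without overlap. LOC_Os07g03279 alone made up much of this sum, and without it the ranges were 0.00490% to 0.00735% in WT and 0.00374% to 0.00513% in ntl3-1, which overlapped. Because the FPKM sum itself was higher at 45 ºC, the fall of the share is larger than the fall of the values.

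At 29 ºC the replicates of a group differed more in these loci than in others of at least 10 FPKM. The coefficient of variation over the 3 libraries had a median of 19.3% in WT and 26.8% in ntl3-1 among the members, against 7.02% and 6.59% over the 8235 loci at the floor. At 45 ºC the medians were 38.2% and 38.3% over the 32 members with a value above 0, at levels that the rule itself held low, so no comparison with other loci is made there. The members were not lower in FPKM at 29 ºC than the other loci at the floor, as their median of 39.3 FPKM shows, while the number of reads behind a value also depends on the transcript length, which was not used here.

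The spread at 29 ºC ran the same way in many members. Relative to its group mean, the median member stood at 0.03, -0.19 and 0.12 on the log2 scale in the WT libraries numbered 1, 2 and 3, and at -0.06, -0.25 and 0.36 in the corresponding ntl3-1 libraries. The WT library numbered 2 was the lowest of its group for 25 members (75.8%, against 37.7% of the loci at the floor), and the ntl3-1 library numbered 2 for 18 (54.5%, against 27.5%). The library numbered 3 was the highest for 18 members in WT (54.5%, against 46.6%) and for 27 in ntl3-1 (81.8%, against 27.9%). Thus 14 members (42.4%) were lowest in number 2 in both genotypes, against 8.65% of the loci at the floor, and 16 (48.5%) were highest in number 3 in both, against 15.3%. The members share these 6 libraries, so the counts describe the libraries and not 33 separate observations, and what the libraries with the same number had in common is not given in the labels.

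**Figure D3:**
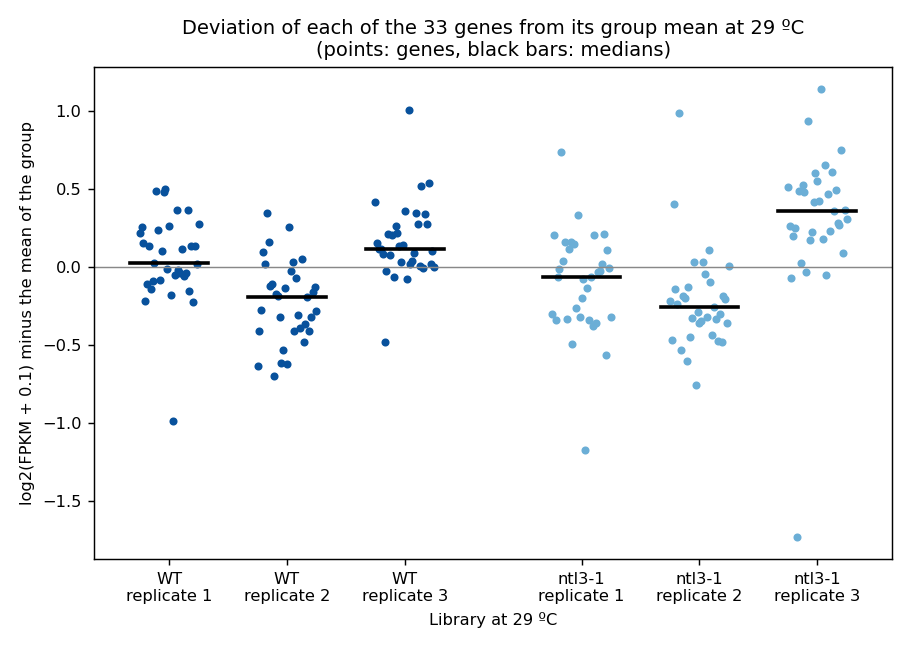
Deviation of each of the 33 members (points) from the mean of its group at 29 ºC on the log2(FPKM + 0.1) scale, for the 3 WT and the 3 ntl3-1 libraries, with the median of each library as a black bar. The medians are lowest in the libraries numbered 2 (-0.19 and -0.25) and highest in those numbered 3 (0.12 and 0.36), and the point at the bottom of the last column is LOC_Os10g05950.

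The rule treats WT and ntl3-1 alike and did not fix whether the members differed between them. It did require the floor and the fall in both, so a locus that fell in WT alone or in ntl3-1 alone could not be a member. The other loci set beside the members were not held to that fall. The standard error of the genotype difference was also larger among the members, with a median of 0.37 against 0.12 over the loci at the floor. At 29 ºC, 0 of 33 passed an adjusted p of 0.05 by limma, adjusted over 31681 loci after Benjamini-Hochberg, against 2.75% of all loci tested and 1.94% of those at the floor. At an unadjusted p of at most 0.05 there was 1 member, against 13.6% of all loci tested. The log2 difference, ntl3-1 minus WT, had a median of -0.25 among the members and of -0.01 over the loci at the floor. It was below 0 for 22 of the 33 members and for 51.5% of the loci at the floor, and it ranged from -0.98 in LOC_Os11g07770 to 0.78 in LOC_Os07g07860. The members share the same 6 libraries at each temperature, so such counts are not 33 separate observations. After rescaling every library to the same FPKM sum the median was -0.33 with 27 members below 0, and after quantile normalization it was -0.29 with 26 below 0, but these settings also moved the median of all loci tested, by -0.07 and -0.05.

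LOC_Os03g13210 was the member with the unadjusted p of at most 0.05 at 29 ºC. Its log2 difference was -0.58 (SE 0.25, Benjamini-Hochberg adjusted p = 0.326 from limma), and the adjusted p was between 0.0981 and 0.612 in 23 alternative settings. LOC_Os11g07770 had the lowest estimate, from 24.8, 18.3 and 36.6 FPKM in WT to 12.6, 10.3 and 16.7 FPKM in ntl3-1. Its ntl3-1 libraries all lay below the WT libraries, but its standard error of 0.55 left the difference at an adjusted p of 0.504 by limma with Benjamini-Hochberg adjustment.

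In 9 members (27.3%) the 3 ntl3-1 libraries all lay below the 3 WT libraries at 29 ºC, an order that 12.6% of all loci tested and 16.4% of the loci at the floor showed. They were LOC_Os12g10220, LOC_Os04g03579, LOC_Os03g13210, LOC_Os07g15370, LOC_Os05g48200, LOC_Os11g07770, LOC_Os05g12280, LOC_Os07g47760 and LOC_Os10g01640. The opposite order was seen in 1 member (3.03%), LOC_Os07g07860, against 13.1% of all loci tested and 15.5% of those at the floor. The smallest standard error among these, pooled over all 4 groups, was that of LOC_Os07g15370, with 34.0, 36.2 and 35.8 FPKM in WT and 26.8, 28.5 and 33.3 FPKM in ntl3-1, a log2 difference of -0.26 (SE 0.14, Benjamini-Hochberg adjusted p = 0.464 from limma).

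At 45 ºC, 0 of 33 members had an adjusted p of at most 0.05 for ntl3-1 against WT by limma with Benjamini-Hochberg adjustment, against 1.62% of all loci tested and 1.38% of those at the floor. At an unadjusted p of at most 0.05 there were 12 members, of which 10 were lower in ntl3-1 and 2 were higher. Over all loci tested 14.0% had such a p, 6.43% lower and 7.60% higher, and over the loci at the floor 15.3% had one, 9.20% lower and 6.05% higher. The median log2 difference of the members was -0.34, against -0.05 over the loci at the floor, with 23 members below 0, 9 above 0 and LOC_Os09g15365 at 0 in both genotypes. Of the loci at the floor 61.3% were also below 0. These values rest on levels near 1 FPKM, where the constant of 0.1 FPKM and single reads weigh most.

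LOC_Os09g23530 on chromosome 9 came nearest to the threshold. At 45 ºC it held 1.27, 0.887 and 1.41 FPKM in WT and 0.410, 0.576 and 0.374 FPKM in ntl3-1. At 29 ºC it held 21.5, 14.7 and 23.7 FPKM in WT and 19.1, 11.7 and 19.9 FPKM in ntl3-1. The genotypes were apart at 45 ºC and overlapped at 29 ºC. The log2 difference at 45 ºC was -1.22 (SE 0.26, Benjamini-Hochberg adjusted p = 0.0541 from limma), and 5 of 23 alternative settings took it past the threshold, with adjusted p between 0.0368 and 0.265 over all of them. The value was 0.0443 without the WT library numbered 2 at 45 ºC and 0.0382 without the ntl3-1 library numbered 2 at 29 ºC.

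The expressed protein LOC_Os04g11040 had a log2 difference of -1.28 at 45 ºC (SE 0.34, Benjamini-Hochberg adjusted p = 0.116 from limma). The ntl3-1 library numbered 2, at 7.77 FPKM, lay within the WT range, and the other two at 2.96 and 2.89 FPKM lay below it. Without that library the difference was -1.74 with an adjusted p of 0.00531 by the same test. The call thus turned on 1 library, and over the 23 alternatives the adjusted p ranged from 0.00531 to 0.494.

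In 5 members (15.2%) the ntl3-1 libraries at 45 ºC all lay below those of WT, against 6.71% of all loci tested and 9.71% of the loci at the floor. They were LOC_Os01g18170, LOC_Os04g03579, LOC_Os10g40430, LOC_Os09g23530 and LOC_Os10g01640, and of these LOC_Os04g03579 and LOC_Os10g01640 had the same order at 29 ºC. LOC_Os01g18170 was the most abundant of them, with a log2 difference of -0.49 (SE 0.22, Benjamini-Hochberg adjusted p = 0.352 from limma). The reverse order was seen in 2 members (6.06%), LOC_Os09g39070 and LOC_Os01g37000, against 7.24% of all loci tested and 5.87% of those at the floor. LOC_Os09g39070 had a log2 difference of 1.05 (SE 0.29, Benjamini-Hochberg adjusted p = 0.124 from limma). LOC_Os01g37000 held 1.21, 0.583 and 1.39 FPKM in WT and 1.39, 1.97 and 1.80 FPKM in ntl3-1, where the lowest ntl3-1 library and the highest WT library were equal to 3 digits.

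**Figure D4:**
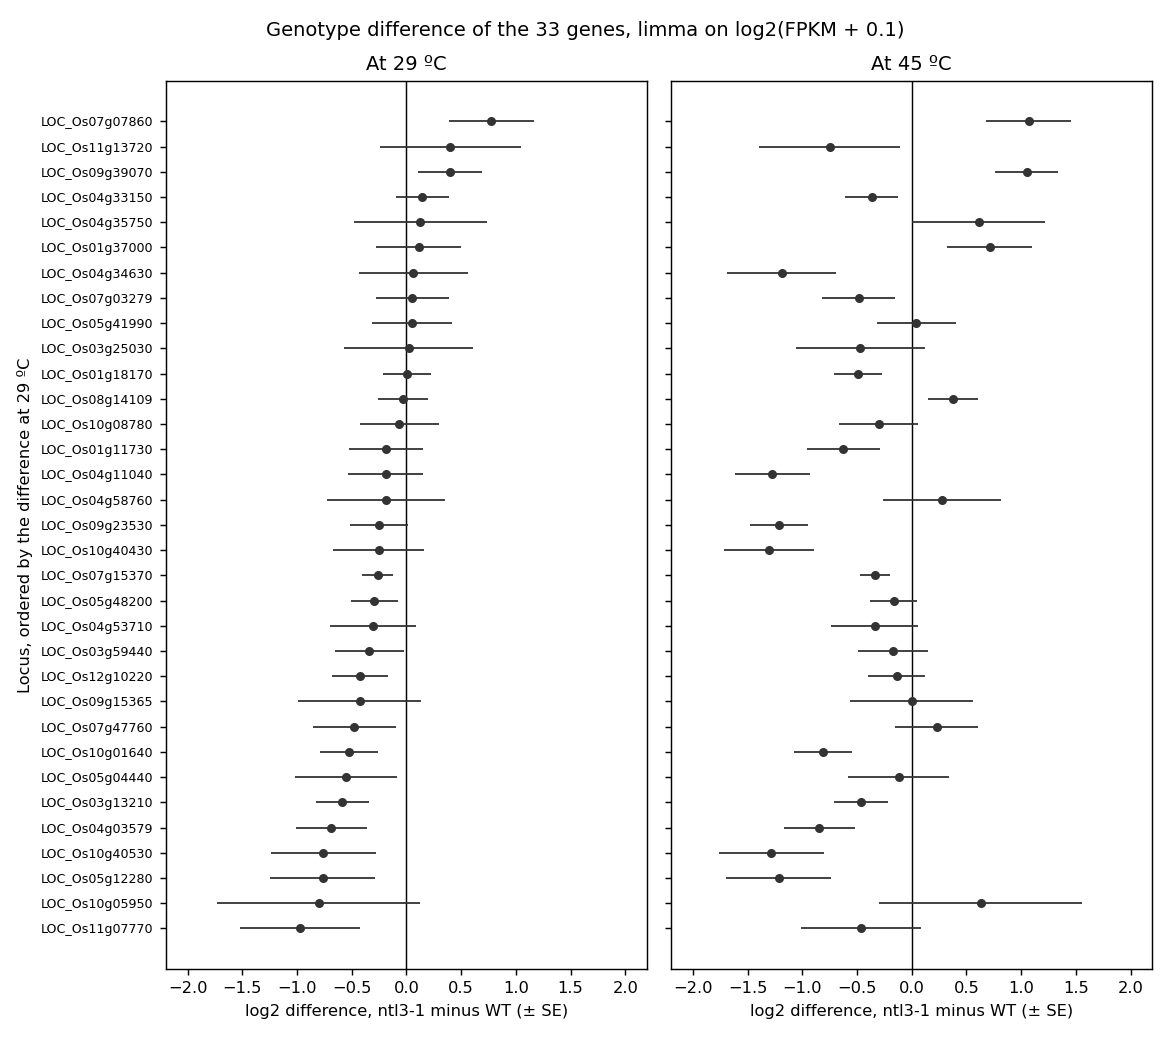
Log2 difference, ntl3-1 minus WT, of each of the 33 members at 29 ºC (left) and at 45 ºC (right) from limma on log2(FPKM + 0.1), with bars of 1 standard error and 3 libraries in each group. Most points lie left of 0, with medians of -0.25 and -0.34, and 0 of the 33 had an adjusted p of at most 0.05 at either temperature.

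The fall itself was compared between the genotypes by the interaction, the log2FC in ntl3-1 minus that in WT. Since the rule required the fall in both, a fall confined to WT or to ntl3-1 could not appear here. By limma with Benjamini-Hochberg adjustment 0 of 33 members had an adjusted p of at most 0.05, against 0.240% of all loci tested, and 2 members had an unadjusted p of at most 0.05, against 7.62%. They were LOC_Os04g11040, at -1.09 (SE 0.48, Benjamini-Hochberg adjusted p = 0.647), and LOC_Os09g23530, at -0.97 (SE 0.37, adjusted p = 0.576). The median interaction over the members was -0.03, with 15 members above 0 and 18 below (60% of the loci at the floor were below 0), and it was 0.04 after rescaling to the same FPKM sum. The interactions ranged from -1.25 in LOC_Os04g34630 to 1.43 in LOC_Os10g05950, the latter with a standard error of 1.31, so differences of this size between the falls were not detectable for single members of wide spread.

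The members lay on 10 of the 12 chromosomes, with 0 on chromosomes 2 and 6. Chromosome 4 held 7 (21.2%, against 8.25% of the loci at the floor) and chromosome 10 held 5 (15.2%, against 4.93%). On chromosome 4 they were LOC_Os04g03579, LOC_Os04g11040, LOC_Os04g33150, LOC_Os04g34630, LOC_Os04g35750, LOC_Os04g53710 and LOC_Os04g58760. By the order of the loci, each was between 104 and 2011 loci from the next. The shortest distances were 104 loci, from LOC_Os04g34630 to LOC_Os04g35750, and 142 loci, from LOC_Os04g33150 to LOC_Os04g34630. These shares carry no test.

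The only close pair was LOC_Os10g40430 and LOC_Os10g40530 on chromosome 10, which are 9 loci apart. LOC_Os10g40430 held 71.8, 33.5 and 56.4 FPKM in WT and 35.9, 44.1 and 50.3 FPKM in ntl3-1 at 29 ºC, and 0.805, 1.94 and 0.639 FPKM against 0.570, 0.337 and 0.209 FPKM at 45 ºC. In WT both loci of the pair were lowest in the library numbered 2 at 29 ºC and highest in the library numbered 2 at 45 ºC. Between them, LOC_Os10g40510 fell from between 25.3 and 50.5 FPKM to between 1.71 and 6.03 FPKM, with log2FC values of -3.25 (WT) and -3.64 (ntl3-1) (Benjamini-Hochberg adjusted p = 2.30e-05 and 1.11e-05 from limma). LOC_Os10g40520 ranged from 41.2 to 176 FPKM at 29 ºC and from 13.1 to 52.6 FPKM at 45 ºC, with log2FC values of -1.80 (WT) and -1.93 (ntl3-1) (adjusted p = 0.0548 and 0.0426 from the same test). LOC_Os10g40490 did not follow, with log2FC values of 1.31 (WT) and 0.77 (ntl3-1) (adjusted p = 0.00296 and 0.0449 from limma). The remaining loci of the stretch were at or below 8.07 FPKM in every library. Loci in such a stretch can be similar copies, and the counting of reads shared between copies was not examined.

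The loci directly before and after each member were also followed, since the rule did not use them. Of 66 such loci 35 were tested. In WT 11 of these (31.4%) were down-regulated by the limits above, against 11.8% of all loci tested, and in ntl3-1 13 (37.1%), against 11.3%. The median of their log2FC was -0.74 in WT and -0.64 for ntl3-1, against -0.04 over all loci tested in each. In both genotypes 10 of them fell, next to 9 members, and 3 were up-regulated in WT and 1 in ntl3-1. The library kit does not mark the strand, so reads of a member and of a neighbour that overlaps it cannot be told apart, and the part this had in the counts was not tested.

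Among the neighbours that fell in both genotypes, LOC_Os07g47750, beside LOC_Os07g47760, had the highest mean in WT at 29 ºC. It fell from 82.4 ± 5.1 to 6.28 ± 2.76 FPKM in WT (SD, n = 3), a log2FC of -3.77 (SE 0.32, Benjamini-Hochberg adjusted p = 4.63e-06 from limma), while LOC_Os07g47760 itself went from between 17.6 and 21.7 FPKM to between 0.373 and 0.838 FPKM in WT. LOC_Os09g23540, beside LOC_Os09g23530, fell from 69.4 ± 6.4 to 20.6 ± 3.1 FPKM in WT (SD, n = 3), log2FC values of -1.76 (WT) and -1.79 (ntl3-1). LOC_Os04g11030, beside the expressed protein LOC_Os04g11040, fell from 19.0 ± 2.7 to 3.09 ± 0.39 FPKM in WT (SD, n = 3), log2FC values of -2.58 (WT) and -3.19 (ntl3-1). LOC_Os03g59430, beside LOC_Os03g59440, moved in the opposite direction, from 1.80 ± 0.22 to 47.4 ± 8.0 FPKM in WT (SD, n = 3), log2FC values of 4.63 (WT) and 4.40 (ntl3-1) (Benjamini-Hochberg adjusted p = 3.24e-07 and 5.21e-07 from limma).

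Outside the set, 7 loci with a product name would have passed if the means at each temperature had been used in place of the lowest and highest library. Their names come from lists the study made from these samples, so a genotype difference in them is not independent of the naming. The MYB family transcription factor LOC_Os01g74410 held 312, 256 and 304 FPKM in WT and 270, 267 and 313 FPKM in ntl3-1 at 29 ºC, and 34.3, 23.8 and 34.2 FPKM against 25.7, 21.5 and 32.6 FPKM at 45 ºC. The putative uclacyanin LOC_Os02g43660, a member of a family of small copper proteins of plants, held 71.8, 50.7 and 69.6 FPKM in WT and 77.9, 70.3 and 84.7 FPKM in ntl3-1 at 29 ºC, and between 2.42 and 12.2 FPKM at 45 ºC. Both would have entered at a ratio of 4 in place of 8, at which 80 loci passed. LOC_Os07g44590, described as a peroxidase precursor, missed the floor and the ratio, with 9.09 to 16.5 FPKM at 29 ºC and 0.474 to 1.38 FPKM at 45 ºC. The genotypes overlapped at both temperatures in these loci and in LOC_Os08g34510, which ranged from 1.45 to 30.4 FPKM at 29 ºC. The remaining 3 were apart at 29 ºC. LOC_Os03g14810, described as a MYB-like transcription factor DIVARICATA, held 15.001, 15.4 and 19.3 FPKM in WT and 4.53, 5.39 and 7.74 FPKM in ntl3-1 at 29 ºC, and 3.36, 1.74 and 1.97 FPKM in WT at 45 ºC, where it was listed at 0 in all 3 ntl3-1 libraries. LOC_Os08g01710, a GLTP domain containing protein, was lower in ntl3-1 at 29 ºC, with 8.16 to 10.6 FPKM against 12.6 to 16.4 FPKM in WT. LOC_Os02g02190, a transporter of the major facilitator family, was higher, with 12.7 to 22.0 FPKM in ntl3-1 against 7.85 to 9.59 FPKM in WT. At 45 ºC the genotypes overlapped in LOC_Os08g01710 and LOC_Os02g02190.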

How the data were processed

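FPKM values were deposited by the authors for 55986 loci in 12 libraries. Per the study's methods, the authors filtered reads with SeqPrep and Sickle, aligned them with TopHat to the MSU rice genome, converted them to FPKM with RSEM and tested them with edgeR. The submitters' processing notes instead name Bowtie 0.12.2 and the mouse build mm8, and the table has a Cuffnorm-like header, so the scaling between libraries is not settled. Over loci above 0 FPKM in every library, the median ratio to the geometric mean of a locus was 0.997 to 1.025 in the 12 libraries. Rescaling by this median of ratios was therefore bound to change little. Read counts were not used, and all 12 columns were mapped to samples by name. Loci above 0 FPKM in at least 3 libraries (31681) were tested on log2(FPKM + 0.1) in R 4.3.3 with limma 3.58.1, with 1 mean per group, a variance trend on the mean, two-sided p and Benjamini-Hochberg adjustment over these loci. FPKM values are not counts, so edgeR was not run here. Calls needed an adjusted p of at most 0.05, and for heat stress also a change of 1 or more on the log2 scale. The procedure was tested on simulated data.

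The members and lists were chosen with earlier results of these data known. The rule for named loci took the 10 most abundant members, the 5 that fell furthest by the ratio, members called between genotypes (there were 0), the loci at the edges of the rule, the member with a product name and members close together. Other members and neighbours named with values, and the loci kept out by the rule, were chosen after their values were seen. Alternatives were constants of 1 and 0.01 FPKM, other filters, rescaling, quantile normalization, the replicate number as a block, variances without a trend, a separate model, an adjusted p of at most 0.01, other floors and ratios, and each library left out in turn.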

Additional observations from a re-analysis of the deposited data

How the results depend on the processing

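The number of loci that met the rule depended on its limits. It was 80 at a ratio of 4 and 12 at a ratio of 16. It was 46 with a floor of 5 FPKM, 20 with a floor of 20 FPKM and 117 with means of the libraries at each temperature. When single libraries were left out, between 33 and 36 loci passed. After median-of-ratios rescaling 32 passed, all of them members, and after quantile normalization 37 passed, of which 31 were members. With each library rescaled to the same FPKM sum, 93 passed. That rescaling moved the median of all loci tested by -0.77 (WT) and -0.72 (ntl3-1) between the temperatures. The median fall of the members was then -5.89 in WT and -5.93 in ntl3-1, against -4.17 and -4.12 with a constant of 1 FPKM, and it was -5.21 in WT with 0.01 FPKM. Leaving out single libraries gave -5.08 to -4.94 (WT) and -5.29 to -4.98 (ntl3-1). At 45 ºC, 1 member (LOC_Os09g23530) was called between the genotypes with a constant of 0.01 FPKM, with a filter of 1 FPKM in 3 libraries and after quantile normalization, and 0 to 1 when single libraries were left out, where the member was LOC_Os09g23530 or, without the ntl3-1 library numbered 2 at 45 ºC, LOC_Os04g11040. OsNTL3 (LOC_Os01g15640) was lower in ntl3-1 at 45 ºC by -1.19, with an adjusted p of 0.00439 by limma that rose to 0.107 in a separate model. The interaction needs all 4 groups, so the separate model was not run for it. At 29 ºC, samples with the same replicate number did not deviate together over the 20729 loci with a mean above 1 FPKM over all libraries (r of -0.08, -0.04 and -0.01). Over the 8235 loci at the floor r was -0.21 and -0.18 for numbers 1 and 2 and 0.30 for number 3. The numbers were not used as pairs. Over the 33 members these values were 0.52, 0.43 and 0.65, a description over loci that share the same 6 libraries. With the replicate block 0 members were called at 29 ºC, at 45 ºC and for the interaction, and the calls over all loci went from 872, 512 and 76 to 826, 475 and 50. The low values at 45 ºC rest on few reads of unknown number.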
